A study of Mus musculus with 6 samples.

Results

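The genes described here encode the matrix metalloproteinases (Mmp), the tissue inhibitors of metalloproteinases (Timp), the ADAMTS proteases (Adamts) and the ADAMTS-like proteins (Adamtsl). They were chosen by name, as every protein-coding row of the deposited table whose symbol is one of these roots followed by a number. The rule gave 50 genes of 55703 rows, of which 21926 are protein-coding: 22 Mmp, 4 Timp, 19 Adamts and 5 Adamtsl genes. Of the 50, 26 were expressed in this tissue, meaning a mean over the 6 libraries of at least 0.5 FPKM and 10 reads, and 24 were below that limit. FPKM here counts sequenced fragments scaled by gene length and by a size factor per library, so levels can be compared between genes.

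Total RNA was sequenced from interscapular brown adipose tissue (iBAT), a heat-producing fat depot, of C57BL/6 mice at 8 weeks of age. The Wtap-BKO group (n = 3) carries 2 floxed Wtap alleles and 1 copy of Ucp1-iCre, and the Wtap flox/flox group (n = 3) carries the same floxed alleles without Cre. WTAP belongs to the complex that methylates adenosines of mRNA, and the comparison asks which transcripts of the depot differ when it is deleted in brown adipocytes. Cre is expressed together with Ucp1 from the modified Ucp1 gene, so the deletion is aimed at brown adipocytes, and the other cell types of the depot are not targeted. Controls that carry Cre alone are not in this comparison.

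The matrix metalloproteinases and the ADAMTS proteases are zinc enzymes that cut collagens, basement membrane proteins and proteoglycans outside cells or at their surface. The metalloproteinases are made as inactive precursors, and the TIMP proteins block the active enzymes by occupying the zinc site. ADAMTS-like proteins resemble the ADAMTS proteases but lack the protease domain, and several bind the microfibrils of the matrix. In fat, these enzymes are known mainly from stromal cells, macrophages and blood vessels, and from the remodelling of matrix around adipocytes.

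Wtap itself was at 11.8, 12.3 and 12.7 FPKM in Wtap-BKO-labelled libraries, against 8.00, 8.63 and 8.16 FPKM in Wtap flox/flox libraries. It was thus higher in the libraries meant to lack it (log2 difference 0.56 ± 0.09 (SE), limma adjusted p = 0.0160). Only exon 4 is floxed, so the level summed over all exons is no check of the deletion or of the labels, and every direction below is that of libraries as labelled. The 6 libraries held 15979694 to 19005123 reads. Brown adipocyte markers summed to 3322 to 4569 FPKM in Wtap-BKO-labelled libraries, against 6320 to 8501 FPKM in Wtap flox/flox libraries, with 2 of 8 tested markers called lower (Ucp1 and Cox7a1) and 0 higher. Of this list, Elovl3 (log2 difference 3.27, limma adjusted p = 0.0516) and Prdm16 (0.49, adjusted p = 0.130) had positive differences that did not pass, and the sum is carried by its most abundant genes. Skeletal muscle markers reached a summed 1305 FPKM in Wtap-BKO replicate 3 and 774 FPKM in Wtap flox/flox replicate 2, against 2.32 to 16.5 FPKM in the other 4 libraries. These markers set 1 library of each group apart, and results are given with and without this pair of libraries where they rest on it.

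All 22 Mmp genes and 18 of the 19 Adamts genes hold codons for the zinc-binding pattern of the family, which is a histidine, a glutamate, 2 further residues, a histidine, 2 residues, a glycine or asparagine, 2 residues and a histidine. Adamts8 did not match the pattern as written here, and other forms of the zinc site were not searched, so its lack of a match does not show that it lacks the site. The pattern was in 0 of the 5 Adamtsl and 0 of the 4 Timp genes. The 33 coding bases of this site are shown for the 3 genes that passed the test below (Mmp28, Mmp19, Mmp2) and for Mmp3 and Mmp9, with the codons of the zinc-binding histidines in capitals.
Mmp28: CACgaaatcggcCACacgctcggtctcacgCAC
Mmp19: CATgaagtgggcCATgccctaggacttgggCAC
Mmp2: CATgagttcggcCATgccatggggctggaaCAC
Mmp3: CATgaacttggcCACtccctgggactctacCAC
Mmp9: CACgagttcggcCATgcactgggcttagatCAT
On GRCm38 these lie at chr11:83444921-83444953 (minus strand) for Mmp28, chr10:128795673-128795705 (plus) for Mmp19, chr8:92839279-92839311 (plus) for Mmp2, chr9:7449775-7449807 (plus) for Mmp3 and chr2:164951133-164951165 (plus) for Mmp9. In the annotated transcript with the longest coding sequence, the site was in exon 5 in 18 of the 22 Mmp genes and in exon 8 in Mmp2 and Mmp9, the gelatinase genes. Mmp2 and Mmp9 transcripts have 13 exons, against 8 in Mmp28 and 9 in Mmp19.

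Among the 26 expressed genes, 3 were called higher in the Wtap-BKO-labelled libraries at an adjusted p under 0.05 and 0 were called lower. All 3 were matrix metalloproteinases, Mmp28, Mmp19 and Mmp2. They are 11.5% of the expressed members, and over all 13507 genes tested 6.10% were called higher and 3.88% lower, 9.98% in either direction. At an unadjusted p under 0.05, 8 members passed, all of them higher, where 28.9% of all tested genes passed in either direction. The values of the 2 groups did not overlap for 7 members, all higher (26.9% of those expressed), and 18.2% of all tested genes lay wholly higher and 16.9% wholly lower. The median log2 difference of the expressed members was 0.16, with 18 of 26 above 0, and that of all tested genes was -0.0038, with 49.6% above 0.

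**Figure D1:**
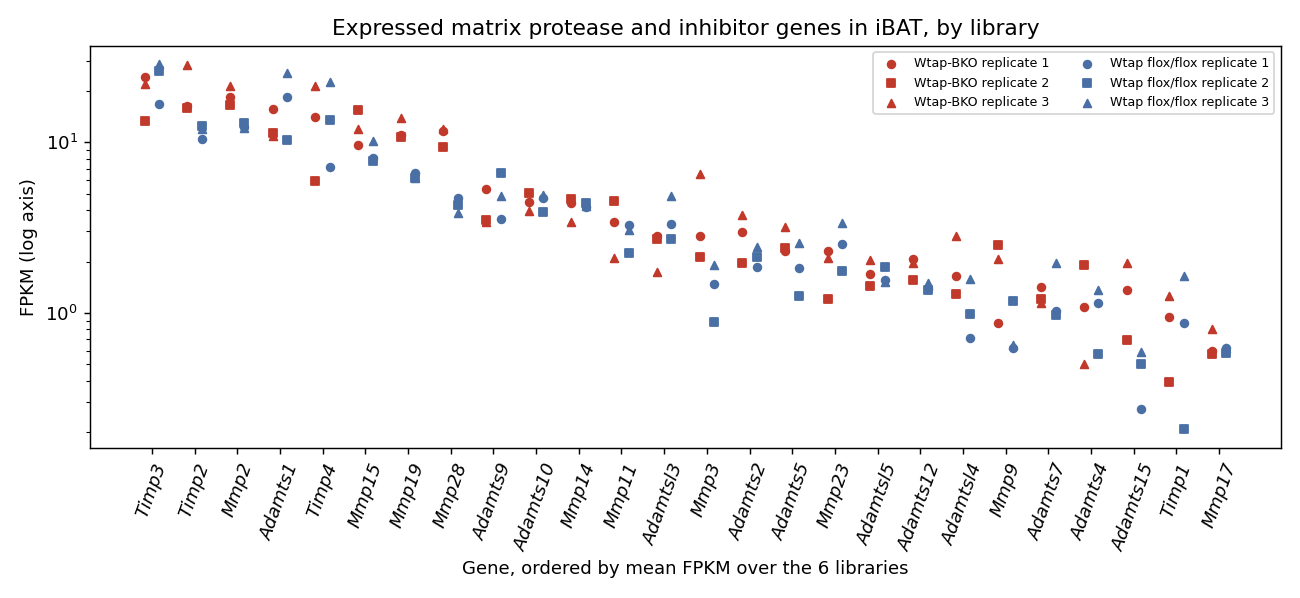
FPKM (log axis) of the 26 expressed genes in each library, ordered by the mean over the 6 libraries; red symbols are the 3 Wtap-BKO-labelled libraries and blue symbols the 3 Wtap flox/flox libraries, with 1 symbol shape per replicate number. Levels run down to a mean of 0.635 FPKM for Mmp17, and the red symbols stand wholly above the blue for Mmp28, Mmp19, Mmp2, Timp2, Mmp3, Adamts15 and Adamts12.

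All 3 calls were of secreted metalloproteinases. Mmp28 encodes epilysin, a secreted metalloproteinase first known from epidermis and testis. It was at 11.6, 9.39 and 12.0 FPKM in Wtap-BKO-labelled libraries, against 4.73, 4.28 and 3.84 FPKM in Wtap flox/flox libraries. The lowest of the 3 Wtap-BKO-labelled libraries was about double the highest Wtap flox/flox library, and the groups did not overlap. The ratio of the means was 2.57, the log2 difference 1.34 ± 0.14 (SE) and the limma adjusted p 0.00514. With each library left out in turn the call held in 6 of 6 fits, at log2 differences of 1.26 to 1.44 and an adjusted p of at most 0.0290. Mmp28 lies at chr11:83440768-83463071 on the minus strand, and 12.0% of its exon bases are shared with 1700020L24Rik on the other strand. That gene averaged 7.40 FPKM in Wtap-BKO-labelled libraries and 5.35 FPKM in Wtap flox/flox libraries (limma adjusted p = 0.197), and the sources used here do not give whether reads were counted by strand.

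Mmp19, whose enzyme cuts basement membrane proteins such as laminin and nidogen, was at 11.1, 10.7 and 13.9 FPKM in Wtap-BKO-labelled libraries, against 6.58, 6.20 and 6.19 FPKM in Wtap flox/flox libraries. All 3 Wtap flox/flox values lay close together, and all 3 others stood above them. The ratio of means was 1.88 and the log2 difference 0.89 ± 0.13 (SE), with a limma adjusted p of 0.0107. The call held in 6 of 6 fits with a library left out, with a highest adjusted p of 0.04997 without Wtap flox/flox replicate 2. Mmp19 lies at chr10:128790910-128800824 on the plus strand, and 28.3% of its exon bases are shared with Tmem198b and Gm47093 on the other strand. Tmem198b averaged 2.82 FPKM in Wtap-BKO-labelled libraries and 2.96 FPKM in Wtap flox/flox libraries (limma adjusted p = 0.803).

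Mmp2 encodes gelatinase A, which cuts denatured collagen and type IV collagen, and it was the Mmp gene with the highest mean level. Its values were 18.4, 16.6 and 21.3 FPKM in Wtap-BKO-labelled libraries, against 12.4, 12.9 and 12.2 FPKM in Wtap flox/flox libraries. The Wtap flox/flox libraries spanned under 1 FPKM, and the groups did not overlap. The log2 difference was 0.58 ± 0.11 (SE), a ratio of means of 1.502, with a limma adjusted p of 0.0274. The call held in 2 of 6 fits with a library left out, and it was lost without Wtap-BKO replicate 3 (0.0782) or without Wtap flox/flox replicate 1 (0.0950), 2 (0.0863) or 3 (0.0762). Mmp2 lies at chr8:92827291-92853420 on the plus strand, and none of its exon bases (0%) are shared with another gene.

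Without both libraries that held muscle RNA, 2 libraries per group remained and 0 of all genes were called, with 2253 of them and 5 members at an unadjusted p under 0.05. Of these 5, Mmp28, Mmp19, Mmp2 and Timp2 were higher and Adamts1 was lower (log2 difference -0.69, limma adjusted p = 0.267). The log2 differences were then 1.27 for Mmp28 (adjusted p = 0.104), 0.77 for Mmp19 (0.128) and 0.51 for Mmp2 (0.214).

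**Figure D2:**
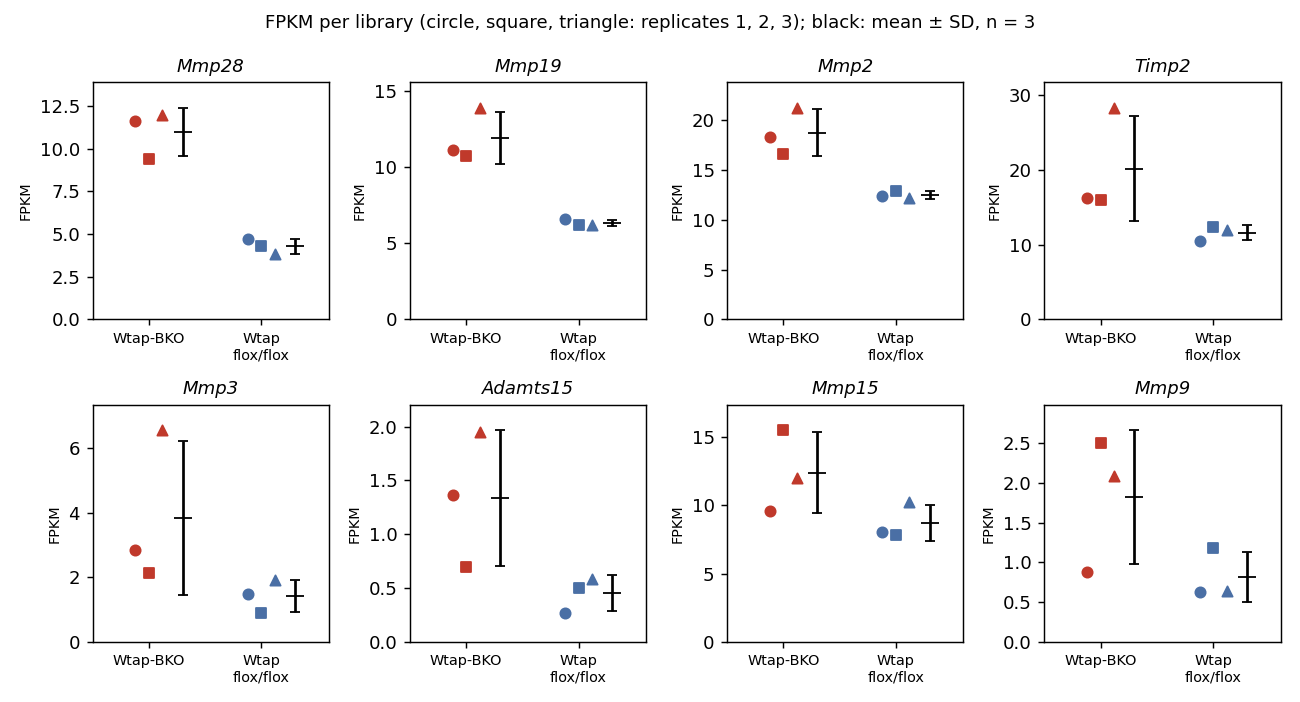
FPKM per library of 8 genes, with Wtap-BKO-labelled libraries (red) left of Wtap flox/flox libraries (blue) and the mean ± SD (n = 3) in black. The upper row shows no overlap between the groups for Mmp28, Mmp19, Mmp2 and Timp2. In the lower row Mmp3 and Adamts15 are highest in replicate 3 of the Wtap-BKO group, and Mmp15 and Mmp9 overlap.

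Mmp3, which encodes stromelysin 1, a broad matrix protease that also activates other metalloproteinase precursors, was at 2.83, 2.12 and 6.55 FPKM in Wtap-BKO-labelled libraries, against 1.47, 0.886 and 1.90 FPKM in Wtap flox/flox libraries. Replicate 3 of the Wtap-BKO group was more than double the other values, and the groups did not overlap. The log2 difference of 1.27 ± 0.44 (SE) did not pass (limma adjusted p = 0.115), and it was 0.53 without both libraries with muscle RNA. Mmp9, which encodes gelatinase B, was at 0.876, 2.50 and 2.08 FPKM in Wtap-BKO-labelled libraries, against 0.624, 1.18 and 0.644 FPKM in Wtap flox/flox libraries. Wtap-BKO replicate 1 lay below the highest Wtap flox/flox library, so the groups overlapped (log2 difference 1.003 ± 0.42 (SE), limma adjusted p = 0.169). With each library left out in turn it was called in 1 of 6 fits, without that replicate (adjusted p = 0.0464), and the adjusted p reached 0.354 in the others and was 0.352 without both libraries with muscle RNA. Mmp11, which encodes stromelysin 3, was at 2.09 to 4.52 FPKM in Wtap-BKO-labelled libraries and 2.23 to 3.28 FPKM in Wtap flox/flox libraries (limma adjusted p = 0.738). Of its exon bases 5.58% are shared with Chchd10 on the other strand, which averaged 226 FPKM in Wtap-BKO-labelled libraries and 207 FPKM in Wtap flox/flox libraries, so the Mmp11 level is uncertain.

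Of the metalloproteinases held at the membrane, Mmp15 was the most abundant. It was at 9.62, 15.5 and 12.0 FPKM in Wtap-BKO-labelled libraries, against 8.05, 7.82 and 10.2 FPKM in Wtap flox/flox libraries. The lowest Wtap-BKO value fell below the highest Wtap flox/flox value, and the log2 difference of 0.49 ± 0.20 (SE) did not pass (limma adjusted p = 0.155). Mmp14, which encodes the protease that activates the MMP2 precursor at the cell surface, was at 3.40 to 4.65 FPKM in Wtap-BKO-labelled libraries and 4.16 to 4.42 FPKM in Wtap flox/flox libraries, with a log2 difference of -0.05 ± 0.14 (SE). Mmp23 was at 1.21 to 2.29 FPKM in Wtap-BKO-labelled libraries and 1.76 to 3.38 FPKM in Wtap flox/flox libraries (log2 difference -0.44, limma adjusted p = 0.397). Mmp17, whose product is tied to the membrane by a lipid anchor, was at 0.578 to 0.806 FPKM in Wtap-BKO-labelled libraries and 0.584 to 0.625 FPKM in Wtap flox/flox libraries. Over the 10 expressed Mmp genes the median log2 difference was 0.53, with 8 of 10 above 0.

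The 4 Timp genes were all expressed and 0 of 4 were called by limma or by voom, with 1, Timp2, at an unadjusted p under 0.05. Timp2, whose product inhibits metalloproteinases and also takes part with MMP14 in the activation of MMP2, was at 16.2, 16.0 and 28.3 FPKM in Wtap-BKO-labelled libraries, against 10.4, 12.4 and 11.9 FPKM in Wtap flox/flox libraries. The groups did not overlap, and Wtap-BKO replicate 3 stood far above the other 2 of its group. The log2 difference was 0.75 ± 0.23 (SE) and the limma adjusted p 0.0846. It was 0.53 without both libraries with muscle RNA. Timp2 over Mmp2 was 0.884, 0.961 and 1.33 in Wtap-BKO-labelled libraries and 0.844, 0.960 and 0.977 in Wtap flox/flox libraries, overlapping ranges of a ratio of FPKM.

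Timp3, whose product binds the matrix and inhibits ADAM and ADAMTS proteases as well, had the highest mean level of all 50 genes. It was at 24.1, 13.4 and 21.9 FPKM in Wtap-BKO-labelled libraries, against 16.7, 26.2 and 28.7 FPKM in Wtap flox/flox libraries, and the ranges overlapped (log2 difference -0.28 ± 0.28 (SE), limma adjusted p = 0.563). Of its exon bases 21.3% are shared with Syn3 on the other strand, which was at a mean of 0.102 FPKM in Wtap-BKO-labelled libraries and 0.0839 FPKM in Wtap flox/flox libraries. Timp4 was at 14.1, 5.94 and 21.4 FPKM in Wtap-BKO-labelled libraries, against 7.21, 13.6 and 22.6 FPKM in Wtap flox/flox libraries. Both groups spanned more than a 3-fold range, and the difference of -0.10 ± 0.55 (SE) was smaller than its error. Timp1, the inhibitor gene best known for induction in inflamed tissue, was at 0.947, 0.391 and 1.26 FPKM in Wtap-BKO-labelled libraries, against 0.870, 0.207 and 1.64 FPKM in Wtap flox/flox libraries. These Timp1 values rest on few reads, 6 to 21 in Wtap-BKO-labelled libraries and 3 to 23 in Wtap flox/flox libraries, and the groups overlapped (log2 difference 0.14 ± 0.68 (SE), limma adjusted p = 0.913).

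Of the 9 expressed Adamts genes 0 were called in either direction by limma or by voom, with 1, Adamts15, at an unadjusted p under 0.05, and the median log2 difference was 0.07. Adamts1, a protease of versican and other proteoglycans, was at 15.7, 11.4 and 10.8 FPKM in Wtap-BKO-labelled libraries, against 18.4, 10.3 and 25.4 FPKM in Wtap flox/flox libraries. The Wtap flox/flox values spread more than 2-fold and enclosed all of the others (log2 difference -0.43 ± 0.32 (SE), limma adjusted p = 0.423). Adamts9, of the same substrate group, was at 5.34, 3.52 and 3.41 FPKM in Wtap-BKO-labelled libraries and 3.53, 6.64 and 4.84 FPKM in Wtap flox/flox libraries (limma adjusted p = 0.549). Adamts15, a further versican and aggrecan protease, was at 1.37, 0.693 and 1.95 FPKM in Wtap-BKO-labelled libraries, against 0.272, 0.504 and 0.587 FPKM in Wtap flox/flox libraries. Its groups did not overlap, but the lowest Wtap-BKO library lay close to the highest Wtap flox/flox library, and the log2 difference of 1.32 ± 0.42 (SE) did not pass (limma adjusted p = 0.0923). Adamts5 had a log2 difference of 0.50 (limma adjusted p = 0.268), which was 0.11 without both libraries with muscle RNA. Adamts4 was at 0.499 to 1.90 FPKM in Wtap-BKO-labelled libraries and 0.574 to 1.36 FPKM in Wtap flox/flox libraries.

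Adamts10, whose product acts on fibrillin microfibrils, was at 4.48, 5.02 and 3.98 FPKM in Wtap-BKO-labelled libraries and 4.73, 3.92 and 4.88 FPKM in Wtap flox/flox libraries, a log2 difference of -0.01 ± 0.14 (SE). Adamts12, whose product cuts cartilage oligomeric matrix protein, was at 2.08, 1.56 and 1.95 FPKM in Wtap-BKO-labelled libraries, against 1.38, 1.36 and 1.496 FPKM in Wtap flox/flox libraries. The groups did not overlap, by a gap far smaller than the spread within the Wtap-BKO group (log2 difference 0.37 ± 0.17 (SE), limma adjusted p = 0.194). Adamts7, which shares that substrate, had a log2 difference of 0.00. Adamts2, the procollagen N-proteinase that trims fibrillar collagens, was at 1.96 to 3.73 FPKM in Wtap-BKO-labelled libraries and 1.86 to 2.45 FPKM in Wtap flox/flox libraries (limma adjusted p = 0.354).

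Of the 3 expressed Adamtsl genes 0 were called by limma or by voom, and 0 had an unadjusted p under 0.05. Adamtsl4, whose product binds fibrillin, was at 1.65, 1.30 and 2.82 FPKM in Wtap-BKO-labelled libraries, against 0.710, 0.980 and 1.58 FPKM in Wtap flox/flox libraries (log2 difference 0.76 ± 0.36 (SE), limma adjusted p = 0.220), and its log2 difference was 0.42 without both libraries with muscle RNA. Adamtsl3 had the lowest difference of all expressed members, at 2.84, 2.71 and 1.74 FPKM in Wtap-BKO-labelled libraries, against 3.33, 2.70 and 4.82 FPKM in Wtap flox/flox libraries (-0.55 ± 0.27 (SE), limma adjusted p = 0.227). Adamtsl5 was at 1.44 to 2.05 FPKM in Wtap-BKO-labelled libraries and 1.52 to 1.85 FPKM in Wtap flox/flox libraries.

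**Figure D3:**
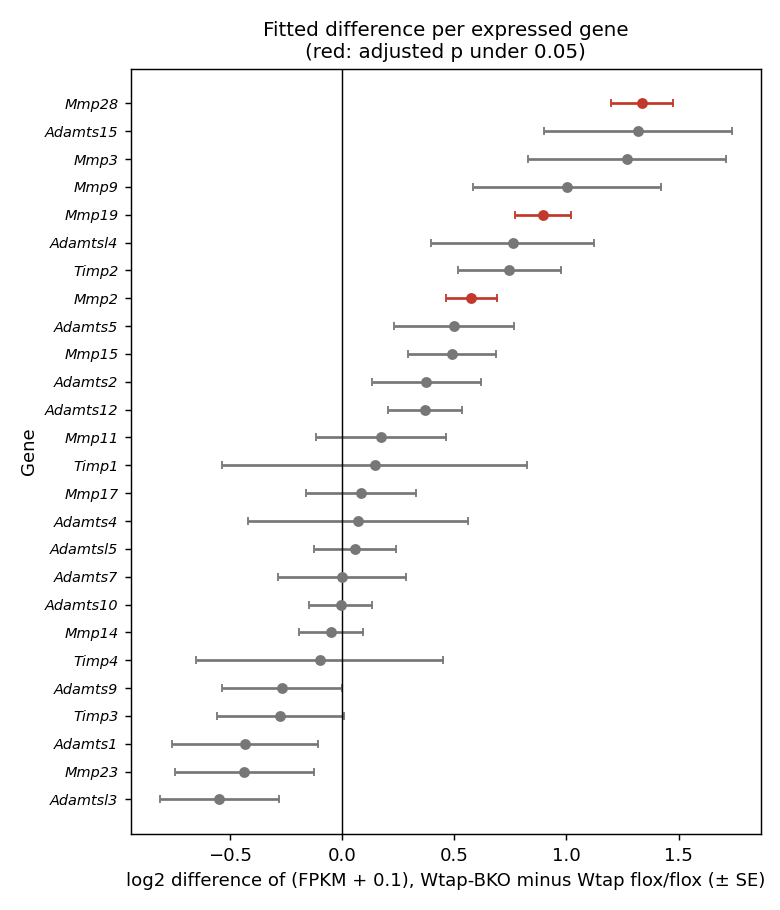
Fitted log2 difference of (FPKM + 0.1) for each of the 26 expressed genes, Wtap-BKO-labelled libraries minus Wtap flox/flox, with its SE; red marks the 3 genes with an adjusted p under 0.05. The values run from -0.55 for Adamtsl3 to 1.34 for Mmp28, and 18 of 26 lie above 0.

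Summed over all members, the Mmp genes were at 66.5, 68.6 and 77.4 FPKM in Wtap-BKO-labelled libraries, against 45.4, 43.1 and 47.9 FPKM in Wtap flox/flox libraries, groups that did not overlap. The summed Timp level was 55.4, 35.6 and 73.0 FPKM in Wtap-BKO-labelled libraries and 35.2, 52.4 and 64.9 FPKM in Wtap flox/flox libraries, which overlapped. Adamts genes summed to 30.4 to 38.2 FPKM in Wtap-BKO-labelled libraries and 28.6 to 46.5 FPKM in Wtap flox/flox libraries. The ratio of the Timp to the Mmp sum was 0.833, 0.519 and 0.942 in Wtap-BKO-labelled libraries, against 0.776, 1.22 and 1.35 in Wtap flox/flox libraries, overlapping at Wtap flox/flox replicate 1. These sums are descriptions and were not tested. Each sum is carried by its most abundant genes, which for Mmp are Mmp2, Mmp15, Mmp19 and Mmp28. Mmp2, Mmp19 and Mmp28 are the genes called above, so the Mmp sum and the Timp to Mmp ratio partly restate those calls. The members took 0.0732% to 0.109% of reads in Wtap-BKO-labelled libraries and 0.0671% to 0.0999% in Wtap flox/flox libraries.

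**Figure D4:**
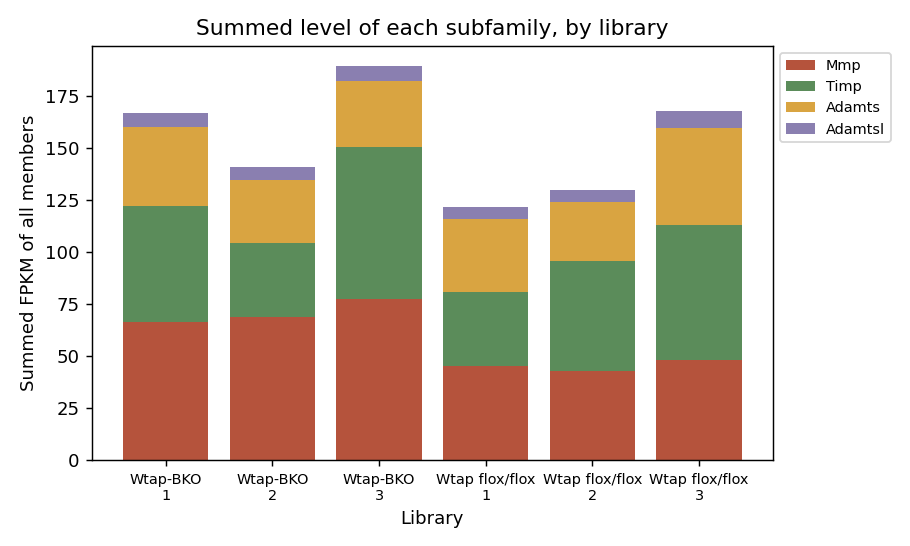
Summed FPKM of the Mmp, Timp, Adamts and Adamtsl genes in each library, stacked, with the 3 Wtap-BKO-labelled libraries on the left. The Mmp block (lowest) is 66.5 to 77.4 FPKM in those libraries and 43.1 to 47.9 FPKM in the Wtap flox/flox libraries, and the Timp block above it varies within both groups.

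Replicate spread of the members was wide. The median coefficient of variation, the SD divided by the mean, was 25.7% in Wtap-BKO-labelled libraries and 28.3% in Wtap flox/flox libraries for the expressed members. For all tested genes it was 14.3% in Wtap-BKO-labelled libraries and 12.5% in Wtap flox/flox libraries, and this difference from the members was not tested. Of the 26, 13 had the highest value of their Wtap-BKO libraries in replicate 3, the library with the most muscle RNA, where 30.4% of all tested genes did. Among all 6 libraries, 11 members were highest in Wtap-BKO replicate 3 and 7 in Wtap flox/flox replicate 3. The part of muscle RNA in these values was not tested.

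Of the 24 members below the expression limit, 4 had 0 reads in all 6 libraries, namely Mmp7, Mmp10, Mmp20 and Mmp1b. A count of 0 allows up to 3 reads, which is at most 0.178 FPKM for Mmp7 and 0.110 FPKM for Mmp10 in any library. The other 20 had reads in some (9) or all (11) libraries. The highest was Mmp12, the macrophage elastase gene, at 0.784, 0.144 and 0.325 FPKM in Wtap-BKO-labelled libraries and 0.236, 0.212 and 0.884 FPKM in Wtap flox/flox libraries. Mmp8, the neutrophil collagenase gene, was at most 0.242 FPKM, and Mmp13, a further collagenase gene, was at 0.165 to 0.355 FPKM over the 6 libraries. Adamts13, the von Willebrand factor protease made mainly in liver, was at most 0.0534 FPKM. The remaining 16 were Mmp16, Mmp21, Mmp24, Mmp25, Mmp27, Adamts3, Adamts6, Adamts8, Adamts14, Adamts16, Adamts17, Adamts18, Adamts19, Adamts20, Adamtsl1 and Adamtsl2.

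Of the 50 genes chosen by name, 9 Mmp genes lie within 427 kb of chromosome 9 (chr9:7272514-7699585), and 1 of the 9, Mmp3, was expressed. The 250 bases before each gene start in RefSeq (GRCm38.p6) were searched on both strands for the AP-1 motif TGANTCA, the TATA box TATAAA, the GC box GGGCGG and the CCAAT box, in the 38 promoters of the 35 members with an entry. AP-1 letters were in 7 of the 38 member promoters, 1 of the 18 of expressed members, and in 6.75% of all 32851 promoters. All 7 were in the chromosome 9 group. GC box letters were in 20 of the 38 member promoters, 13 of the 18 of expressed members, and in 32.7% of all promoters. The TATA box was in 9 of 38 (2 of the 18), against 12.4% of all promoters. The CCAAT box was in 8 of 38 (3 of the 18), against 33.8%. All promoters were counted whether or not their gene was expressed. Mmp2, Mmp19 and Mmp9 had no entry and were not searched. The promoters of Mmp3 and of Mmp10, the next of these 9 genes, which had 0 reads, are shown with that of Mmp28, the gene with the lowest adjusted p. The matched letters are in capitals.
Mmp28: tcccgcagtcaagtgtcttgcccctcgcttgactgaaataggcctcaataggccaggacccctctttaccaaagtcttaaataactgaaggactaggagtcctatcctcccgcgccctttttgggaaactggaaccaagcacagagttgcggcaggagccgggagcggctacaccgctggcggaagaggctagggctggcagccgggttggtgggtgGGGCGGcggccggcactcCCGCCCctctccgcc
Mmp3: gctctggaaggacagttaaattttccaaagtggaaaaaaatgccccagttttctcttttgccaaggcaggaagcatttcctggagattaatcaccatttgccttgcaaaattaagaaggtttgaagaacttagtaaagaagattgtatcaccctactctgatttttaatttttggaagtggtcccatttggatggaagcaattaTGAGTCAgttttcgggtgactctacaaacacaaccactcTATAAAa
Mmp10: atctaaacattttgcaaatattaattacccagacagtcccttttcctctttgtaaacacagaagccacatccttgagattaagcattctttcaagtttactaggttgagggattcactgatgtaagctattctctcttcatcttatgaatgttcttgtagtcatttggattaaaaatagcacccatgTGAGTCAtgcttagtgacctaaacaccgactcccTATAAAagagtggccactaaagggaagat
On GRCm38.p6 these are chr11:83463041-83463290 (minus strand) for Mmp28, chr9:7445572-7445821 (plus) for Mmp3 and chr9:7502092-7502341 (plus) for Mmp10. In the Mmp28 window the GC box lay 33 and, on the other strand, 15 bases before the start. Mmp3 had AP-1 letters 46 and a TATA box 7 bases before it, and Mmp10 had them 63 and 29 bases before it. Such matches describe the sequence only.

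Genes that act beside these families were counted from lists written for this purpose. Of all tested genes, 6.10% were called higher and 3.88% lower, the background for each list. Of the 13 tested cathepsin and cystatin genes, lysosomal proteases and their inhibitors, 6 were called higher and 0 lower, with a median log2 difference of 0.36. Ctsl was at 29.9, 35.1 and 34.7 FPKM in Wtap-BKO-labelled libraries, against 20.4, 22.5 and 20.6 FPKM in Wtap flox/flox libraries (limma adjusted p = 0.0154), and Ctsb was also called (0.0251). Of 7 tested genes of procollagen and other matrix processing, 3 were called higher and 0 lower. Pcolce2, an enhancer of procollagen C-proteinase, was at 3.89, 3.79 and 4.57 FPKM in Wtap-BKO-labelled libraries, against 1.01, 1.08 and 1.41 FPKM in Wtap flox/flox libraries, well apart (log2 difference 1.73 ± 0.17 (SE), limma adjusted p = 0.00486). The other calls in this list were Htra3 and Htra1, which encode secreted serine proteases. Bmp1 (limma adjusted p = 0.399) and Pcolce (0.445), also on the list, were not called.

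Of the 8 tested activators, receptors and inhibitors of the metalloproteinases, 1 was called higher, the proprotein convertase gene Pcsk6, and 0 lower. Lrp1, the receptor that clears metalloproteinases with their inhibitors, was at 17.4, 17.5 and 24.1 FPKM in Wtap-BKO-labelled libraries, against 26.6, 27.9 and 33.5 FPKM in Wtap flox/flox libraries (limma adjusted p = 0.0655). Of 9 ADAM genes 0 were called in either direction by limma or by voom, with 2 at an unadjusted p under 0.05, Adam12 (limma adjusted p = 0.0691) and Adam33 (0.0863). Of 7 plasminogen system genes 0 were called higher and 1 lower, Plgrkt, a plasminogen receptor. Of 8 tested substrates of the ADAMTS proteases 0 were called either way by limma or by voom and 4 had an unadjusted p under 0.05, with a median log2 difference of 0.59. Col1a1 had the smallest p of these, at an adjusted 0.0864.

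Markers of cell types that can make these enzymes were counted as well, with the same background of 6.10% higher and 3.88% lower. Each summed level is carried by the most abundant markers of its list. Of 7 tested general adipocyte markers 1, Adipoq, was called higher and 0 lower. They summed to 4757 to 5289 FPKM in Wtap-BKO-labelled libraries and 4454 to 4857 FPKM in Wtap flox/flox libraries. Of 3 T and B cell markers Cd79a, and of 5 Schwann markers S100b, was called lower. Pericyte and smooth muscle (6 tested) and mast cell (5 tested) markers had 0 called by limma or voom and 1 each at an unadjusted p under 0.05. Of the 11 tested fibroblast and preadipocyte markers 2 were called higher and 0 lower, and their summed level was 213 to 309 FPKM in Wtap-BKO-labelled libraries, against 169 to 210 FPKM in Wtap flox/flox libraries. The log2 difference was above 0 for 9 of these 11, and below 0 for Ly6a (-0.01), the most abundant, and Cd34 (-0.15). Of the 11 tested macrophage markers 4 were called higher and 0 lower, with sums of 259 to 388 FPKM in Wtap-BKO-labelled libraries, against 169 to 254 FPKM in Wtap flox/flox libraries. Neutrophil markers summed to 2.42 to 15.6 FPKM in Wtap-BKO-labelled libraries and 7.78 to 10.5 FPKM in Wtap flox/flox libraries, with 0 of 4 called by limma or voom and 0 at an unadjusted p under 0.05. Endothelial markers summed to 159 to 281 FPKM in Wtap-BKO-labelled libraries and 215 to 297 FPKM in Wtap flox/flox libraries, with likewise 0 of 7 called and 0 at an unadjusted p under 0.05. No epithelial marker was expressed, and Krt5 and Krt14, which define basal epidermis, had 0 FPKM in all 6 libraries. The part of these cell types in the Mmp28, Mmp19 and Mmp2 values was not tested, and in bulk tissue more cells of a type cannot be told apart from more RNA per cell.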

How the data were processed

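Total RNA of iBAT from 3 Wtap-BKO and 3 Wtap flox/flox mice, biological replicates by the study's methods, was sequenced as paired reads. Per the submitters' processing notes and the methods, the authors aligned reads with HISAT2 2.0.5 to GRCm38.p6, counted them per gene with featureCounts 1.5.0-p3 and compared groups with DESeq2 1.16.1. The deposited values used here are FPKM per gene. Each FPKM value times gene length was a whole multiple of 1 step per library (100% of nonzero values within 0.01), which gave back the reads, and the authors' scaling equalled median-of-ratios size factors (ratio 1). Rows without a symbol (282) took at most 0.151% of reads. There is no other sample column.

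limma 3.58.1 in R 4.3.3, with a variance trend, was fitted to log2(FPKM + 0.1) of the 13507 genes that averaged 0.5 FPKM or more and 10 or more recovered reads, with group as the only term. This scale understates changes of low genes. P-values are two-sided and adjusted by Benjamini-Hochberg over all genes tested, with calls under 0.05. With 3 against 3, an exact permutation test cannot go below 0.1 and was not used. The depth, 15979694 to 19005123 reads per library, gives a similar counting precision for all. Spread between replicates was wider than counting error. The chi-square per degree of freedom of read counts was 69.9 to 150 between Wtap-BKO replicates and 27.7 to 45.6 between Wtap flox/flox replicates. A floor of 3 reads covers counting error only.

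Genes with values per library were the called members, the 10 with the highest mean, all Timp genes and the members whose groups did not overlap. Values of other members were chosen by role after they were seen. Members and lists were chosen with earlier results of these data known. Alternatives were another pseudocount, 2 other filters, 2 other scalings, voom on recovered reads, protein-coding genes only, the replicate number as a block and each library left out. Leaving out both libraries with muscle RNA was chosen after seeing the data. Zinc-site codons come from GENCODE M21 transcripts on GRCm38 and promoters from RefSeq (GRCm38.p6).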

Additional observations from a re-analysis of the deposited data

How the results depend on the processing

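Among the alternatives, Mmp28 stayed higher at an adjusted p under 0.05 under each except leaving out both libraries with muscle RNA. Of the 3 calls, 1 was kept with a replicate block, Mmp28 (limma adjusted p = 0.0354), 2 without a filter, and 0 without both libraries with muscle RNA, where 0 of all genes were called against 5 members and 2253 genes at an unadjusted p under 0.05. With 1 library left out, 2 to 4 members were called higher. With the block the adjusted p was 0.0513 for Mmp19 and 0.0902 for Mmp2, and without a filter 0.0509 for Mmp2. With all 6 libraries, members called lower were 0 by limma and by voom, with 0 of them at an unadjusted p under 0.05 by limma. Without both libraries with muscle RNA, Adamts1 was lower at an unadjusted p under 0.05 (log2 difference -0.69, limma adjusted p = 0.267).

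Over all genes, 824 were called higher and 524 lower. These counts were 442 and 245 without a filter, 211 and 97 with the block, 0 and 0 without both libraries with muscle RNA, and 219 to 849 and 88 to 428 with 1 library left out. Scaling by library size alone gave 1115 higher and 310 lower and moved the median of all genes to 0.0781. Same-numbered libraries correlated at -0.0536, -0.396 and -0.27 (deviations from group means), so the numbers were not used as pairs.

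Directions turned for several members. Adamts10 was 0.0767 with library size alone and -0.10 to 0.0770 with 1 library left out, Timp1 -0.86 without both muscle libraries and -0.55 to 0.70 with 1 left out, Timp4 -0.52 to 0.41 with 1 left out, and Adamts9 0.0677 without both muscle libraries. With 1 library left out, Mmp14 ran from -0.13 to 0.09, Mmp11 from -0.07 to 0.46, Mmp17 from -0.05 to 0.16, Adamts4 from -0.35 to 0.52, Adamts7 from -0.17 to 0.31 and Adamtsl5 from -0.07 to 0.18. Without both muscle libraries Mmp14 was 0.11, Mmp17 -0.08 and Adamts7 -0.11. The cause was not tested. A count of 0 allows up to 3 reads in a library.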
